A study of Mus musculus with 3 samples.

Results

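Regions of mouse liver chromatin that were called for both mTOR and the estrogen-related receptor ERRα are described here. The chromatin immunoprecipitation and sequencing (ChIP-seq) tracks cover 3 libraries from male C57Bl/6 mice, 2 to 3 months old, whose livers were taken: 1 with an antibody to mTOR, 1 with an antibody to ERRα and 1 with rabbit immunoglobulin G (IgG), the control. All 3 groups share strain, sex, age and tissue. Each ChIP library pooled 8 immunoprecipitations out of a chromatin pool of 26 livers, while the sources used here do not say how many went into the control. With 1 library in each group there is no replicate check, and every statement compares libraries of pooled liver tissue in which all liver cell types are mixed.

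The mean coverage of each track was taken in bins of 200 bp on chromosomes 1 to 19 (mouse build mm9), with uncovered positions at 0. A bin was called for a ChIP where its level exceeded 2.0 and where the level plus 0.2 was at least 3 times the IgG level plus 0.2; adjacent called bins were joined into regions. This ratio is the fold given below, taken in the bin where the ChIP is highest. A shared region is an mTOR region that overlaps an ERRα region by at least 1 bp, which on this grid means that at least 1 bin was called in both. The shared regions were thus chosen by their mTOR, ERRα and IgG levels. There were 544 shared regions among 9053 mTOR regions, and they met 537 of 21679 ERRα regions, because 7 ERRα regions held 2 shared mTOR regions each. Over regions of either ChIP, counted once where they met, the series held 30195. By bin, 727 were called in both ChIPs. The calls covered 0.137% of the covered bins for mTOR and 0.346% for ERRα, and 4.56% of the bins called for mTOR were also called for ERRα, or 1.80% of those called for ERRα. The rule fixes these values, so they describe the set and test nothing.

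mTOR is a serine/threonine kinase that works in large protein complexes and couples nutrient and growth factor signals to protein synthesis, lipid synthesis and autophagy. It has no known sequence-specific DNA-binding domain, and ChIP also recovers DNA that a protein reaches through partners. ERRα is an orphan nuclear receptor that binds DNA through its zinc fingers, works with coactivators of the PGC-1 family and is known in liver for genes of mitochondrial respiration, fatty acid oxidation and glucose metabolism. Regions are given by position, since no mm9 annotation or sequence was used here.

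The headers gave 62500000 tags for mTOR, 74200000 for ERRα and 68800000 for IgG. Levels are the authors' coverage per 10000000 tags, at 0.16, 0.135 and 0.145 units per tag in that order, and mean autosomal coverage was 0.626, 0.628 and 0.628. The minimum level of 2.0 corresponds to about 16.7 mTOR tags or 19.8 ERRα tags in a bin. For ratios, 95% intervals were computed exactly (Clopper-Pearson) from tags approximated from coverage. They cover counting error only and do not allow for the selection of regions by these same levels.

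Most shared regions were weak in at least 1 ChIP, and mTOR was usually the weaker. The median mTOR level was 2.91 (quartiles 2.39 and 3.99), the median ERRα level 5.34 (3.38 and 9.04) and the median IgG level in the mTOR bin 0.588 (0.482 and 0.70). In fold over IgG the medians were 3.95 for mTOR and 6.89 for ERRα. The smaller of the folds was that of mTOR in 411 of the 544 regions, and it lay below 4 in 320 of them (58.8%, exact binomial interval 54.6 to 63.0). Both ChIPs, each in its own highest bin, which need not be the same, reached 5-fold in 98 regions, 10-fold in 20 and 20-fold in 1. The set therefore sits close to the calling rule, and 171 regions (31.4%) had an mTOR level below 2.5. The other mTOR regions were also close to it, with a median level of 3.12 (quartiles 2.42 and 4.67) and a median fold of 4.47. The smaller fold is by definition no higher than the fold of either ChIP. The number of shared regions was 88 at a minimum of 5-fold, 177 at a minimum level of 3.0 and 234 with a local background.

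The region in which both ChIPs were strongest together was chr2:132403801-132404600. mTOR reached 58.5 in its highest bin and ERRα 19.05 in the same bin, where IgG was at 0.596. This put mTOR 73.8-fold and ERRα 24.2-fold over the control. The mTOR and ERRα regions had the same boundaries, and the summits, the positions of highest coverage, were 7 bp apart. The widths at 50% of the maximum were 297 bp for mTOR and 294 bp for ERRα, so that both ChIPs drew a peak of nearly the same place and width at a height that differed 3.07 times (interval 2.60 to 3.67).

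Next in rank came regions in which the summits lay further apart. At chr5:150040201-150041000 mTOR reached 18.96 over an IgG level of 0.6, and ERRα reached 9.47 over 0.306, with summits 260 bp apart. At chr10:79711401-79712600 mTOR reached 28.9 over 0.4 and ERRα 16.1 over 0.697, with summits 221 bp apart. In the first region mTOR had fallen to 5.91 in the highest ERRα bin and ERRα was at 4.33 in the highest mTOR bin. In the second mTOR was still at 13.9 in the highest ERRα bin, while ERRα was at 3.13 in the highest mTOR bin.

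At chr1:184430801-184431400 the order of the ChIPs was the opposite. ERRα reached 223.5 in its highest bin, the highest ERRα level of all shared regions, where IgG was 1.25. mTOR reached 19.8 over an IgG level of 0.92. The mTOR summit lay 1 bp from the ERRα summit, and the widths at 50% of the maximum were 341 bp and 350 bp, so a small mTOR peak had the outline of the large ERRα peak. ERRα was 11.3 times as high as mTOR (9.63 to 13.3).

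The region of rank 5, chr9:78023001-78023600, had a double peak in both ChIPs. mTOR reached 13.0 and ERRα 6.92 in their highest bins, where IgG was 0.3 and 0.2. Measured from the ERRα summit, mTOR had its maximum of 21.0 at 10 bp and a second one of 16.8 at 253 bp, with 7.2 between them. ERRα had 11.8 at 0 bp and 9.6 at 228 bp, with 3.7 between. The 2 ChIPs thus had the same number of peaks at nearly the same places, and the peak at the summit was narrow, at 162 bp for mTOR and 163 bp for ERRα. Coverage summed to about 149 bp per tag in both ChIPs, so the peaks at the summits were little wider than a tag. The only other shared region with widths of at most 200 bp in both ChIPs was chr2:125443401-125443600. The sources used here do not say how duplicate tags were treated, and their part was not tested.

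**Figure D1:**
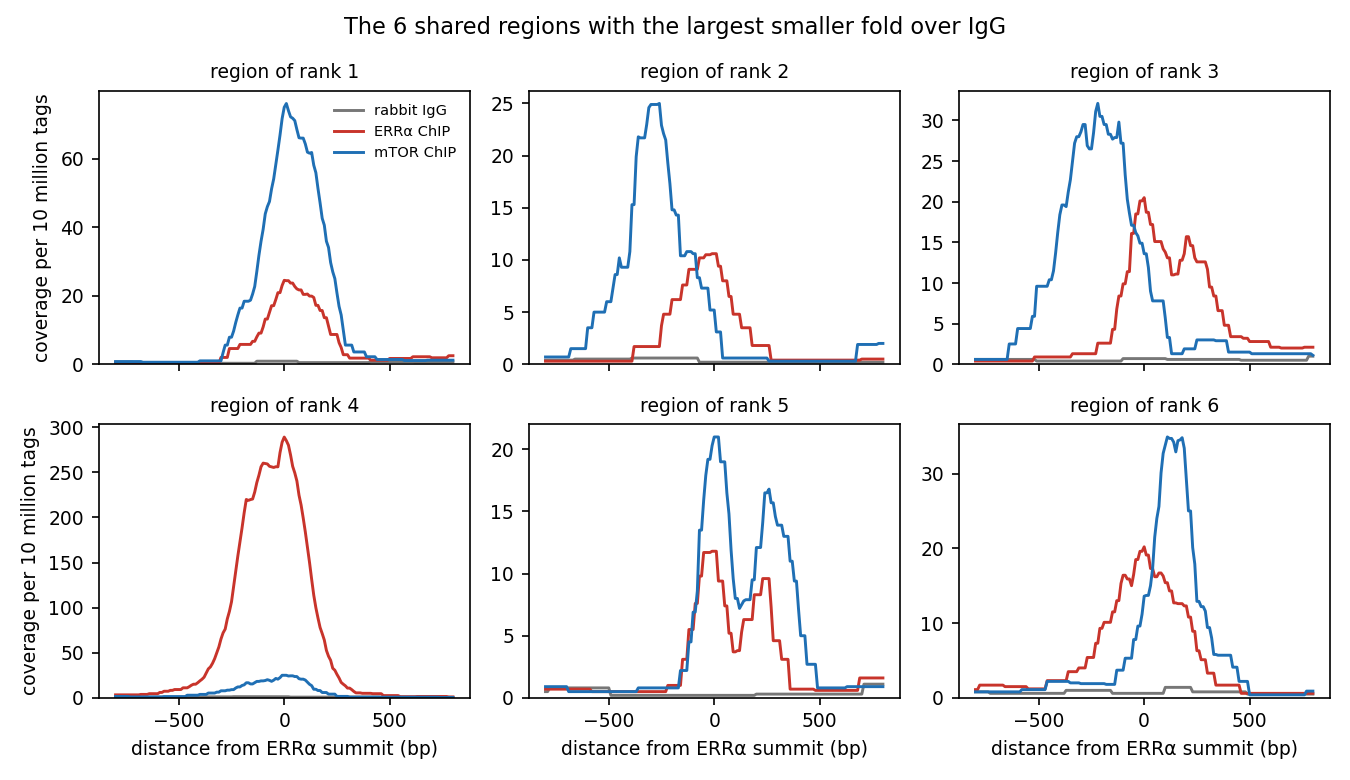
Coverage (vertical axes, per 10000000 tags, with a scale of their own in each panel) against distance from the ERRα summit (horizontal axes, bp) in the 6 shared regions of highest rank, with mTOR in blue, ERRα in red and rabbit IgG in grey. The summits coincide within 10 bp at ranks 1, 4 and 5 and stand 260, 221 and 110 bp apart at ranks 2, 3 and 6, while IgG stays close to the axis in all 6 panels.

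The remaining regions among the 10 of highest rank differed in which ChIP was higher and by how much. At chr9:123438201-123439000 mTOR was at 24.3 and ERRα at 16.5 over an IgG level of 0.892, and the summits were 110 bp apart. At chr18:12713601-12714400 mTOR was at 11.4 and ERRα at 6.29 over 0.3, and the summits were 40 bp apart. chr5:125889001-125890200 held 42.2 for mTOR and 10.3 for ERRα over 0.6, with 65 bp between summits, and mTOR was 4.11 times as high (3.28 to 5.16). The other regions of this rank, chr2:156817401-156818000 and chr2:119419601-119420400, had summits 591 bp and 533 bp apart, and a single bin was called in both ChIPs. ERRα was the higher ChIP in the first of these, at 18.5 against 7.14, and the levels of 9.18 for mTOR and 8.38 for ERRα in the second differed by less than the counting error (ratio 1.10, 0.786 to 1.502). In both regions each ChIP was below 2.0 in the highest bin of the other. mTOR was at 1.92 in the first and 1.21 in the second, and ERRα at 1.18 and 1.55.

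Over all 544 shared regions ERRα was more often the higher ChIP. mTOR was the higher ChIP in 134 regions (24.6%, 21.1 to 28.5) and ERRα in 409, with 1 region level. The median ERRα level was 1.68 times the mTOR level of the same region, with quartiles of 1.01 and 3.17. In regions of a single ChIP the median level was 3.12 for mTOR and 3.39 for ERRα. The ChIPs used different antibodies whose yields were not compared, so the ratio is one of coverage and not of occupancy. The counting interval of the ratio lay below 1 in 272 regions, that is with ERRα higher, and above 1 in 61. For the remaining 211 it held 1, and the depth did not allow a difference to be detected. Across regions, Pearson's r of the log2 levels was 0.0041 and Spearman's rho -0.0054 (n = 544 regions, which share their libraries, with a floor under both levels). The rule sets a floor under both levels, so these values describe the chosen regions and say nothing of how the levels relate outside them.

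The extremes were high in 1 ChIP and near the minimum in the other, except for an ERRα level of 7.60. The ratio was highest in favour of mTOR at chr3:30499801-30500600, where mTOR was at 59.9 and ERRα at 2.57 over IgG levels of 1.06 and 0.688, a ratio of 23.3 (15.9 to 37.0). At chr11:68853601-68855600 mTOR was at 64.3 and ERRα at 3.29 over 0.68 (ratio 19.6, 13.6 to 28.3), and at chr11:48666801-48667600 at 36.9 and 2.59 over 0.70 and 0.535. chr1:84835801-84836600 had the highest mTOR level of the set, 106, with ERRα at 7.60 and IgG at 0.515. In these 4 regions mTOR was 41.3-fold to 148-fold over IgG, while ERRα was 3.12-fold to 10.9-fold.

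In the opposite direction, chr5:139450801-139451200 held an mTOR level of 3.26 and an ERRα level of 94.6 over an IgG level of 0.941, so that ERRα was 29.0 times as high (19.9 to 44.5). At chr19:6996601-6996800 the levels were 2.497 for mTOR and 58.0 for ERRα over 0.6, at chr8:96994601-96994800 2.93 and 59.8 over 0.638, and at chr12:12183001-12183200 2.23 and 40.1 over 0.501 and 0.6. mTOR was 3.03-fold to 3.74-fold over IgG in these 4 regions, close to the minimum, so their membership rests on a small mTOR excess.

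**Figure D2:**
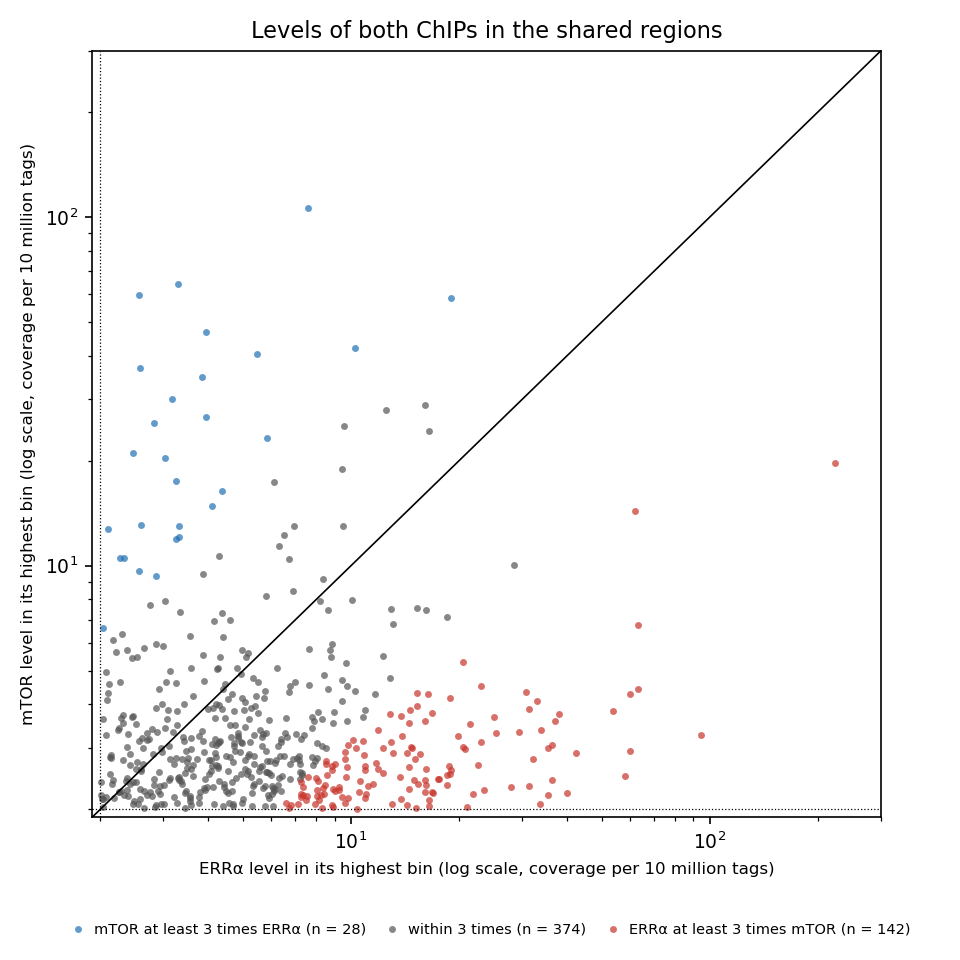
mTOR level against ERRα level in the highest bin of each ChIP for the 544 shared regions (both axes logarithmic, coverage per 10000000 tags); the solid line marks equal levels and the dotted lines the minimum of 2.0. Points are coloured by the ratio of levels: in 142 regions ERRα was at least 3 times as high, in 28 mTOR was, and 374 lay within 3 times; most points lie near the lower left.

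Regions led by either ChIP also differed in extent. In the 142 regions (26.1%) with ERRα at least 3 times as high as mTOR, the mTOR stretch was narrow, with a mean of 279 bp (median 200 bp), inside ERRα regions with a mean of 834 bp. In the 28 regions (5.15%) with mTOR at least 3 times as high the means were 936 bp for mTOR and 357 bp for ERRα. The 374 regions (68.8%) within 3 times had means of 352 bp and 494 bp. The mean mTOR width over all shared regions was 363 bp, against 352 bp for the 8509 mTOR regions without an ERRα region. Widths follow from the level through the rule and come in steps of 200 bp: 298 of the 544 shared mTOR regions (54.8%) were a single bin, as were 52.8% of the other mTOR regions. The ERRα partners were wider than the other ERRα regions, at a mean of 569 bp against 367 bp, and 18.1% of them were a single bin against 47.6%.

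The widest shared regions were led by mTOR. chr11:68853601-68855600, named above, spanned 2000 bp for mTOR and wholly contained an ERRα region of 400 bp at its edge. The highest bin of this region was the same in both ChIPs, and the summits were 80 bp apart. At chr11:115274001-115275600, with 1600 bp, mTOR was at 26.7 and ERRα at 3.95 over IgG levels of 0.70 and 0.67. At chr10:120922001-120923600, also with 1600 bp, mTOR was at 23.2 and ERRα at 5.83 over 0.4. This last region also had the largest distance between summits of all shared regions, 1135 bp, followed by chr10:127014201-127014800 with 1133 bp and chr12:110088601-110088800 with 1102 bp. In the region of chr10:127014201-127014800 mTOR was at 2.53 and ERRα at 18.8 over 0.6 and 0.696, and the ERRα summit lay outside the mTOR region; the same ERRα region held a second shared mTOR region next to its summit. At chr12:110088601-110088800 mTOR was at 2.52 and ERRα at 4.01 over 0.54 and 0.5.

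The width of the peaks at 50% of the maximum was also measured at base level. The median was 397.5 bp for mTOR in shared regions (quartiles 308 and 524) and 362 bp (295 and 458) in the other mTOR regions. For ERRα it was 393 bp (330 and 490) in the 537 partner regions and 408 bp (331 and 508) in the other ERRα regions. The mTOR peaks of the 142 regions led by ERRα were the broadest, with a median of 449.5 bp against 395.5 bp in the 374 within 3 times and 330 bp in the 28 led by mTOR. The mTOR level was also lowest in the first of these classes, at a median of 2.54, and its part in the width was not tested.

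Summits were close together in most shared regions. The median distance was 95 bp (exact interval of the median 84 to 110, quartiles 38 and 208). Of the 544 regions, 95 had summits within 25 bp, 173 within 50 bp (31.8%), 284 within 100 bp (52.2%, 47.9 to 56.5) and 400 within 200 bp. In 144 regions the summits were more than 200 bp apart and in 44 more than 400 bp. The highest bin was the same in both ChIPs in 287 regions (52.8%). The rule requires a common bin, which limits the distances that can occur, and the tracks are stepped: the stretch of constant coverage at the summit had a median length of 61 bp for mTOR and 41 bp for ERRα.

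The same distance was also taken in IgG and in regions of a single ChIP. From the mTOR summit to the highest IgG position in the joined mTOR and ERRα region, the median was 174.5 bp, and 30.5% (26.7 to 34.6) of the distances were within 100 bp. In a fixed window of 500 bp on either side of the ERRα summit, the highest mTOR position was within 100 bp in 50.1% (45.8 to 54.4) of the 537 partner regions and the highest IgG position in 15.5% (12.5 to 18.8). At the 21142 ERRα regions without an mTOR region the shares were 26.6% (26.0 to 27.2) for mTOR and 16.8% (16.3 to 17.3) for IgG. Around the mTOR summits without an ERRα region, the highest ERRα position was within 100 bp in 21.4% (20.5 to 22.3) and the highest IgG position in 15.1% (14.4 to 15.9). These shares are a description: the rule asks for a bin high in both ChIPs and low in IgG, which by itself brings the ChIP summits together and keeps the highest IgG position away from them. Regions of a single ChIP were likewise chosen with IgG low in the called bins. The intervals treat regions as independent draws.

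**Figure D3:**
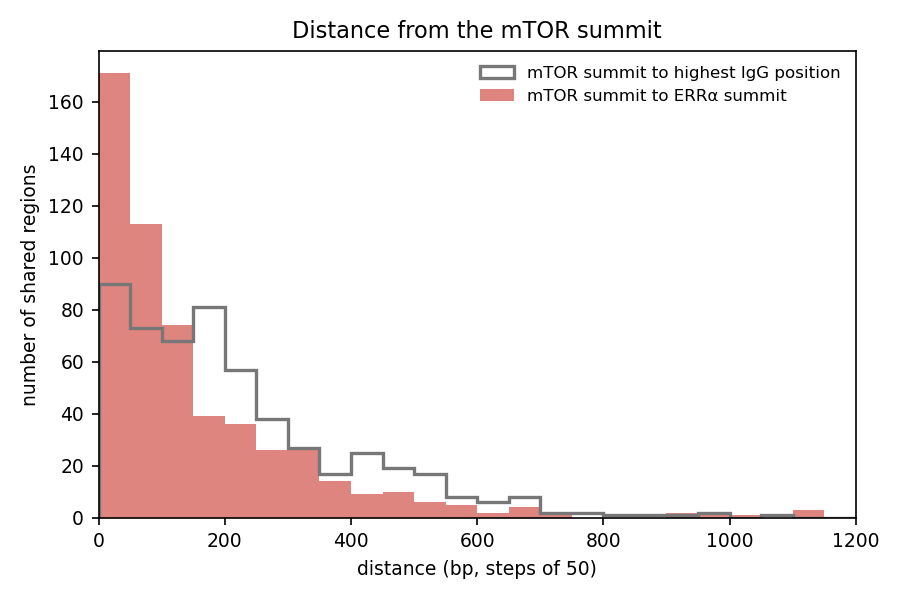
Number of shared regions (vertical axis) by distance from the mTOR summit (horizontal axis, bp, in steps of 50) to the ERRα summit (filled red) and to the highest IgG position in the same region (grey line). The red bars are highest below 100 bp, where 284 of 544 regions lie, and the IgG distances are spread more widely, with a median of 174.5 bp.

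The closest summits among the 50 regions of highest rank were found at different levels of the ChIPs. Besides chr1:184430801-184431400, with 1 bp, these were chr2:26456201-26456600 and chr19:5845201-5846000, with 3 bp each. At chr2:26456201-26456600 mTOR was at 3.78 and ERRα at 16.9 over 0.3. At chr19:5845201-5846000 mTOR was at 21.1 and ERRα at 2.48 over 0.2, and ERRα was only 1.73 times its flanks. The stretch of constant coverage at the summit was 112 bp for mTOR in the former and 118 bp for ERRα in the latter. A distance of 3 bp is therefore not resolved in these regions. Close summits were somewhat more frequent where ERRα led: within 100 bp in 59.9% (51.3 to 68.0) of the 142 regions with ERRα at least 3 times as high, in 50.3% (45.1 to 55.4) of the 374 within 3 times and in 39.3% (21.5 to 59.4) of the 28 with mTOR at least 3 times as high. These intervals overlap. Strong regions did not have closer summits than weak ones: the median distance was 87.5 bp in the 320 regions with a smaller fold below 4, 94.5 bp in the 166 from 4 to 6, 215 bp in the 38 from 6 to 10 and 149.5 bp in the 20 at 10 or more. The bands from 6 upward hold few regions. Widths follow from the level through the rule, and wider regions leave room for larger distances. The part of width in these medians was not tested.

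The outline of coverage was also compared base by base. Over the 500 bp on either side of the mTOR summit, the correlation of the mTOR and ERRα coverage had a median of 0.68 over the 544 shared regions (quartiles 0.38 and 0.84) and reached 0.8 in 171 of them (31.4%). In the other mTOR regions the median was 0.16, and 4.46% reached 0.8. mTOR and IgG had a median of -0.01 in the 541 shared regions whose windows could be compared and 0.03 in the others. ERRα and IgG had a median of 0.07 in the shared regions. In the other mTOR regions it was 0.29, and 6.25% reached 0.8, which is more than for mTOR and ERRα there. These are descriptions over neighbouring bases of 1 window, and the rule selected shared regions for high values of both ChIPs there.

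**Figure D4:**
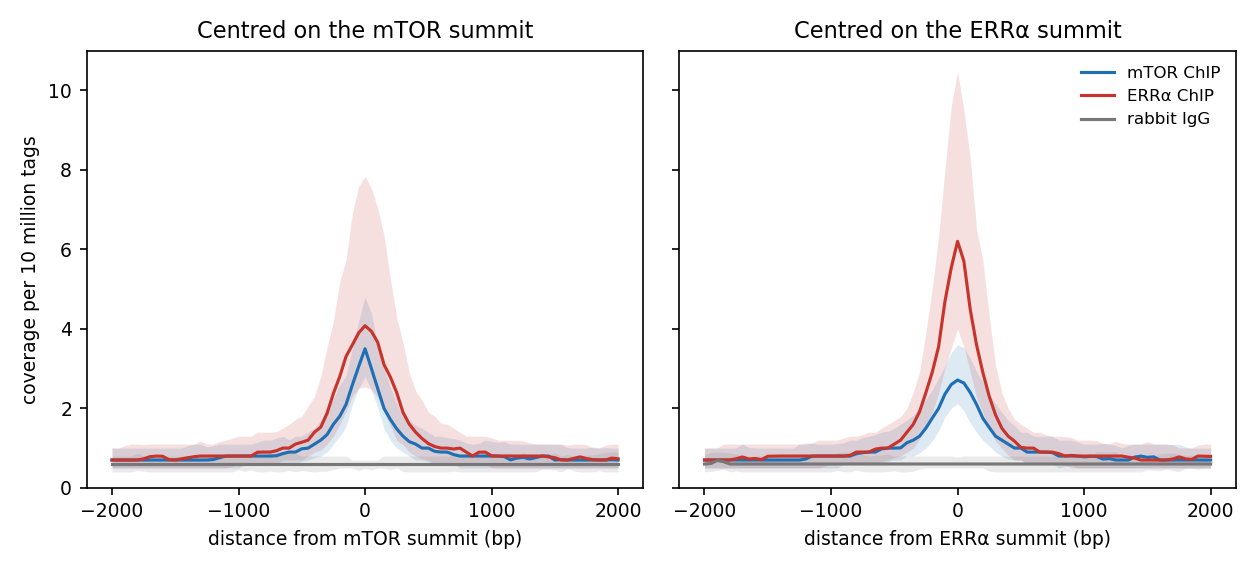
Median coverage over the 544 shared regions (lines; shaded bands give the quartiles) against distance from the mTOR summit (left) and from the ERRα summit (right), in bp; vertical axes give coverage per 10000000 tags. Both ChIPs peak at either centre, with mTOR at 3.5 and ERRα at 4.08 on the mTOR summit and at 2.71 and 6.203 on the ERRα summit, while the IgG median is 0.6 at both.

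Because a low IgG value raises a fold, each ChIP was also compared with its own flanks, the bins 2 to 5 kb away on both sides. The median ratio was 3.78 for mTOR (quartiles 2.98 and 5.26), 6.58 for ERRα (3.99 and 10.95) and 0.868 for IgG in the mTOR bin. mTOR stood at least 3 times above its flanks in 407 regions (74.8%), ERRα in 485 (89.2%) and both in 371 (68.2%, 64.1 to 72.1), and 23 regions reached this in neither ChIP. IgG reached it in 0 regions, stood at least 1.5 times above its flanks in 24 and was below them in 355 (65.3%, 61.1 to 69.3). The rule asks for a ChIP level above 2.0 and a low IgG level in the called bins. The ChIP and IgG levels in these ratios are thus part of what chose the regions. Only the flanks were not used by the rule, so the ratios to flanks are a description. The median IgG level in the mTOR bin was 0.588 in shared regions and 0.543 in the other mTOR regions. The highest IgG levels of the set were 1.54 in the ERRα bin of chr3:51554001-51554200, with mTOR at 2.69 and ERRα at 22.5, and 1.42 at chr18:9489201-9489600, with mTOR at 6.79 and ERRα at 13.1.

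The 3 libraries were also put in other roles. With the mTOR ChIP as background, 18727 regions were called for ERRα and 124 for IgG, and 1 ERRα region was shared. With the ERRα ChIP as background, 7673 were called for mTOR and 119 for IgG, and 1 mTOR region was shared. When IgG was called over each ChIP instead, 15 of the 124 regions over mTOR met 1 of the 119 over ERRα (12.1%, 6.93 to 19.2). The 1 IgG library is likewise common to both calls behind the shared set.

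How often a region was shared varied with strength in different ways for the ChIPs. The bands are cut on the fold that the rule used, and both ChIPs are set over the same IgG library. The shares by region and by bin are therefore descriptions. For ERRα the share rose steadily, from 0.995% (0.805 to 1.22) of the 9443 regions at 3-fold to 4-fold, to 4.57% at 7-fold to 10-fold, 8.38% at 10-fold to 20-fold, 19.03% (14.3 to 24.5) at 20-fold to 50-fold and 52.4% (29.8 to 74.3), or 11 of 21, at 50-fold or more. For mTOR the share was lowest in the middle: 7.56% (6.72 to 8.46) of the 3664 regions at 3-fold to 4-fold, 4.07% (3.17 to 5.13) at 5-fold to 7-fold, 3.69% (2.55 to 5.14) at 7-fold to 10-fold, 3.96% at 10-fold to 20-fold and 8.37% (5.19 to 12.6) at 20-fold to 50-fold. At 50-fold or more it was 7 of 72, or 9.72%, with an interval of 4.0 to 19.01.

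Since a region of more bins can meet more regions, the share was also taken by bin. By bin the ERRα share still rose, from 0.895% of 17087 bins at 3-fold to 4-fold to 5.17% at 10-fold to 20-fold and 38.7% (21.9 to 57.8) of 31 bins at 50-fold or more. The mTOR share by bin was 6.23% (5.63 to 6.87) at 3-fold to 4-fold, 1.87% (1.27 to 2.65) at 7-fold to 10-fold and 4.44% (2.80 to 6.64) at 20-fold to 50-fold. The median IgG level of these ERRα bins was 0.667 in the lowest band and 0.6 in the highest, and that of the mTOR bins was 0.6 and 0.495.

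**Figure D5:**
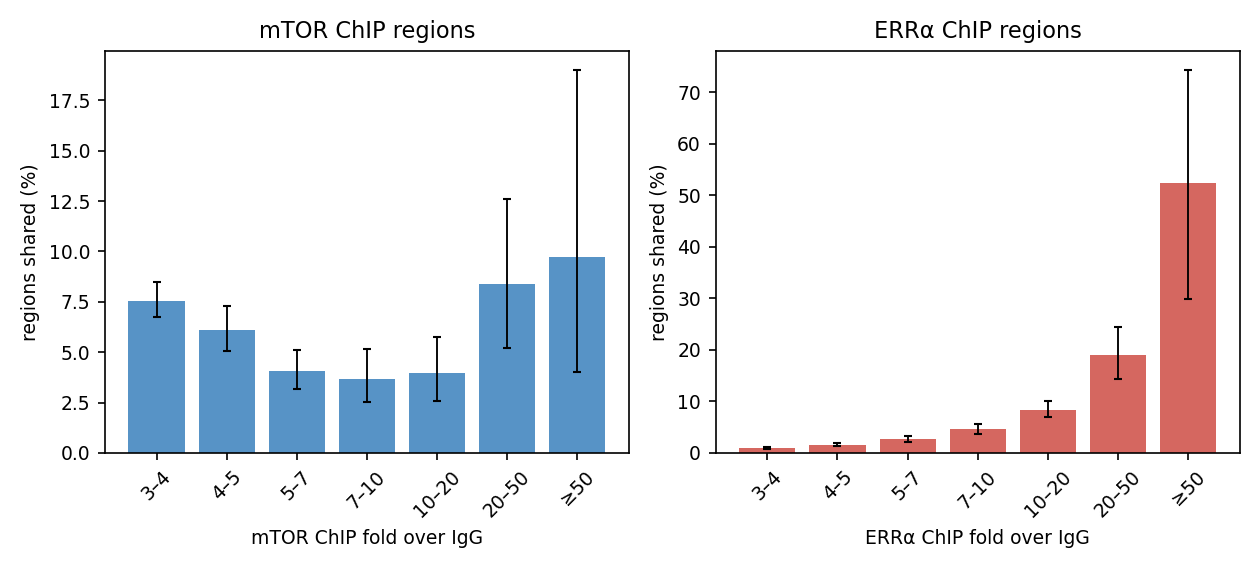
Percent of regions that were shared (vertical axes, from 0, with different scales) by fold over IgG in the highest bin (horizontal axes) for mTOR regions (left) and ERRα regions (right); bars give the share and lines the exact binomial 95% interval. The ERRα share rises from 0.995% to 52.4%, and the mTOR share falls from 7.56% to 3.69% before it reaches 9.72% in the highest band, which holds 72 regions.

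Some mTOR regions came close to the rule without meeting it. Of the 8509 mTOR regions left out, 132 contained a bin with ERRα above 2.0 and 433 more had their highest ERRα bin between 1.5 and 2.0. In this paragraph the ERRα fold is taken among the bins of the mTOR region, which need not include the highest ERRα bin. In 63 this ERRα fold reached 2.5 or more without reaching 3. Just inside the fold minimum were chr12:29435401-29436800, with an ERRα fold of 3.01, chr7:30954401-30955000, also with 3.01, and chr1:93344001-93344600, with 3.02. The highest ERRα bin at chr7:30954401-30955000 lay outside the mTOR region and had 3.85. At chr12:29435401-29436800 mTOR was at 5.64 and ERRα at 2.21 over 0.6. Just outside were chr15:39645001-39645400, with an ERRα fold of 2.99 and levels of 2.79 for mTOR and 2.40 for ERRα, chr17:34302401-34302800 with 2.98 and chr14:51629001-51629200 also with 2.98.

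Shared regions were found on all 19 autosomes. Their density was highest on chromosome 19, with 0.401 per Mb of covered sequence (23 regions), followed by chromosome 11 with 0.350 (41 regions) and chromosome 8 with 0.319 (39 regions). It was lowest on chromosome 6, with 0.140 (20 regions), and the median chromosome had 0.242. Chromosomes 19 and 11 also had the most regions of either ChIP, with 6.16 and 5.76 mTOR regions and 14.1 and 15.1 ERRα regions per Mb, and their shared percentages of mTOR regions, 6.52% and 6.08%, were near the 6.01% of all autosomes. Over the 19 chromosomes Spearman's rho of the shared density was 0.72 with the mTOR density and 0.70 with the ERRα density, as a description of counts that include the shared regions. As a share of the mTOR regions of a chromosome, the shared regions ranged from 3.84% (2.36 to 5.87) on chromosome 6 to 8.36% (5.75 to 11.7) on chromosome 15, with a median of 6.08%. The intervals of these extremes just overlap, at 5.75 to 5.87.

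Neighbouring shared regions were usually far apart, with a median of 619148 bp to the nearest one, but some lay in groups. Another shared region was within 10 kb for 64 regions (11.8%) and within 100 kb for 135 (24.8%). At steps of at most 10 kb the 64 regions formed 30 chains, 26 pairs and 4 chains of 3. The closest pair, chr2:125443001-125443200 and chr2:125443401-125443600, had mTOR summits 337 bp apart inside a single ERRα region. mTOR was at 4.43 and 6.75 in the pair, over IgG levels of 0.70 and 0.99, and ERRα was at 62.9 over 0.99. A chain of 3 at chr1:184429001-184431400 included the region with the highest ERRα level. The others were at chr5:119782601-119789200, chr8:122957801-122973200 and chr18:21086001-21097600.

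At the scale of 1 Mb, 389 windows held a shared region and 28 held 3 or more. The fullest was chr10:127000001-128000000 with 8 shared regions, where ERRα was the higher ChIP in all 8: mTOR levels ran from 2.18 to 4.18 and ERRα levels from 2.38 to 18.8. The window chr5:125000001-126000000 held 7, of which mTOR was the higher in 3, with mTOR levels from 2.44 to 42.2 and ERRα levels from 3.91 to 20.7. It included chr5:125889001-125890200, the region of rank 9. Both windows were also rich in regions of either ChIP, with 30 mTOR and 50 ERRα regions in the first and 26 and 43 in the second. The shared regions, 8 of 30 and 7 of 26 mTOR regions, were nevertheless a larger share than the 6.01% of all autosomes. The windows were picked for their high number of shared regions.

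Regions of either ChIP were also more frequent around shared regions. Another ERRα region had its summit within 10 kb of the mTOR summit for 59.6% (55.3 to 63.7) of the shared regions and for 37.1% (36.0 to 38.1) of the other mTOR regions. Another mTOR region lay within 10 kb for 36.9% (32.9 to 41.2) against 28.5% (27.6 to 29.5). From the ERRα side, another mTOR region lay within 10 kb of 35.2% (31.2 to 39.4) of the partner regions and of 18.9% (18.3 to 19.4) of the other ERRα regions. These counts leave out the overlapping partner itself.

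Background coverage was also higher than around the other mTOR regions. In the flanks 2 to 5 kb away, shared regions had median levels of 0.790 for mTOR, 0.821 for ERRα and 0.666 for IgG, against 0.698, 0.681 and 0.629 in the other mTOR regions. The other ERRα regions had 0.713, 0.725 and 0.656. The ChIP flanks can contain further regions of the same ChIP, while the IgG flanks rose less. Against the other mTOR regions, the flanks were thus higher in every library. Against the other ERRα regions the IgG flanks hardly differed. Their medians were 0.668 in the 537 partner regions and 0.656 in the others, and their means 0.671 and 0.674. The part of flank coverage in the overlap was not tested.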

How the data were processed

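Coverage of 3 ChIP-seq libraries came from deposited signal tracks of tag coverage; per the file headers, the authors had scaled them to 10000000 tags. Libraries were sequenced as single reads of 50 bp, per the labels. BWA 0.5.9, MACS 1.4.1 and build mm9 are named, with no roles, per the submitters' processing notes; which program wrote the tracks, how tags were extended and how duplicates were handled is not given in the sources. Coverage summed to 149 to 150 bp per tag and values come in steps of 0.1. Intervals of constant coverage limit the precision of summits, which are midpoints of the highest stretch. Groups followed sample titles. No test gives a p-value with 1 library a group; shares have exact binomial 95% intervals. Named were the regions ranked highest by smaller fold, ratio, width, summit distance, IgG level and closeness to the threshold or to each other, 31 shared regions and 3 outside. The members and lists were chosen with earlier results of these data known. The procedure was tested on simulated data with planted peaks on an even background. The planted peaks were stronger than most shared regions are in their weaker ChIP, so the test does not cover those regions. Sequence outside chromosomes 1 to 19 was left out, except X and Y in an alternative. Python 3.11.15, NumPy 2.4.6, SciPy 1.17.1, pandas 2.3.3 and Matplotlib 3.10.9 were used.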

Additional observations from a re-analysis of the deposited data

Results flagged for a closer look

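Chromosomes X and Y, which the shared set leaves out, held 3 shared regions under the same rule, and all 3 lay on X; they are given because both ChIPs exceed the IgG control there. At chrX:98835001-98835600 the mTOR level was 31.7 and the ERRα level 2.33 over an IgG level of 0.3, with the summits at the same position. At chrX:137584201-137584400 mTOR was at 2.46 over an IgG level of 0.6 and ERRα at 8.88 over 2.17, with summits 718 bp apart. At chrX:137587001-137587400 mTOR was at 3.85 and ERRα at 6.75 over 0.2, with summits 87 bp apart.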

How the results depend on the processing

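The number of shared regions, 544, was 88 at a minimum of 5-fold, 337 with a pseudocount of 0.4, 177 at a minimum level of 3.0, 994 in 100-bp bins, 234 with a local background and 2334 when the mean over the genome replaced IgG; the other 5 alternatives gave 535 to 744. Scaling to the median bin, which moved mTOR and ERRα by 0.09 and 0.11 on the log2 scale relative to IgG, gave 744. As a share of mTOR regions, 6.01% became 2.35%, 4.73%, 3.68%, 6.86%, 3.64% and 17.5% in the same order, and 6.84% with the median scaling. The median summit distance of 95 bp was 82 bp at the minimum level of 3.0 and with the local background, 81.5 bp in 100-bp bins, 39 bp with the mean over the genome and 0 bp between centres of the highest bins, whose steps are 200 bp. mTOR was the higher ChIP in 33.0% at 5-fold and 43.6% with the mean over the genome, against 24.6%; the other 10 alternatives gave 23.9% to 27.3%, so ERRα was the higher in most regions under all 12. Both ChIPs stood 3 times above their flanks in 81.8% at 5-fold, 75.7% with the larger pseudocount, 91.5% at level 3.0, 58.7% with the median scaling and, by construction, 100% with the local background, against 68.2%. Where no construction is named, the cause was not tested. No paired analysis was possible because each group has 1 library. Depth limits the low end, where a level of 2.0 stands for near 17 mTOR tags. Over regions of all levels, 211 of 544 ratios could not be told from 1.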
